A study of Homo sapiens with 6 samples.

Results

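Semaphorins, plexins and neuropilins are a family of guidance ligands and receptors, and 9 of its genes were examined in colorectal cancer cells with PCYT2 knockdown. The ligands were SEMA3F, SEMA3C, SEMA4B and SEMA4C, the receptors PLXNA1, PLXNB1 and PLXNB2, and the co-receptors NRP1 and NRP2. Members were looked up by symbol, as rows whose Ensembl identifier carries one of these names in GENCODE release 29, and all 9 were found. The symbols were chosen with earlier results of these data known, and the p-values of members below do not allow for that choice. They were 9 of the 31 semaphorin, plexin and neuropilin genes looked up and 9 of 19655 genes in the tables. SEMA3F was selected on its high level and on its difference between the hairpins in these same libraries, so its values are given as a description, without a test.

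The data are RNA-Seq of SW480, a human colorectal cancer cell line, in FPKM, a unit of sequenced fragments scaled for gene length and library size. There were 6 libraries in 3 groups of 2: cells with a nontargeting hairpin (shNT), with a first hairpin against PCYT2 (shPcyt2-1) or with a second one (shPcyt2-2). Per the study's methods, hairpins were carried by lentivirus in the pLKO.1-TRC vector and infected cells were selected with puromycin, with no clone described and no separate account of the shNT cells. The labels do not say whether the 2 libraries of a group came from separate cultures, so p-values measure the spread between these libraries, which may be technical. The depth in reads is unknown. The commonest value above a small floor, which tracks the worth of a few reads, was seen 26 (shPcyt2-2 replicate 1) to 38 times (shPcyt2-1 replicate 1). It gave a rough relative depth between 5.26 (shPcyt2-1 replicate 1) and 6.89 (shNT replicate 1).

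Semaphorins are secreted or membrane-bound ligands first known for steering growing axons. They act through plexins, whose cytoplasmic part acts on small GTPases and so changes adhesion and the cytoskeleton. Most secreted semaphorins bind a neuropilin, which pairs with an A-type plexin to pass on the signal and also serves VEGF receptors, and in epithelial tumors the family is known for effects on migration and on vessels.

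PCYT2, the rate-limiting enzyme of the ethanolamine branch of phosphatidylethanolamine synthesis, was lower in all 4 knockdown libraries. It was listed at 11.6 and 13.8 FPKM with shNT, at 7.11 and 7.36 with shPcyt2-1 and at 6.71 and 6.18 with shPcyt2-2. The log2 fold change of FPKM + 1 was -0.73 (SE 0.10, limma with Benjamini-Hochberg adjustment, adjusted p = 0.0020) with shPcyt2-1 and -0.88 (SE 0.10, limma, adjusted p = 0.0026) with shPcyt2-2. PCYT2 overlaps ANAPC11 on the opposite strand, at a mean of 97.4 FPKM, and whether counting used strand is not given in the sources used here.

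The SEMA3F promoter is shown because its letters include those that ZEB1 and SNAI2, drivers of epithelial-to-mesenchymal transition named in the study, are known to bind. Capitals mark an E-box core (CAGGTG or CACCTG), a GC box (GGGCGG or CCGCCC, bound by SP1) or a TEAD element (GGAATG or CATTCC), searched on both strands. GC boxes may overlap each other. The 150 bases of SEMA3F end at the base before its first GENCODE exon (chr3:50154895-50155044, plus strand) and hold 1 E-box core, 8 GC boxes and 0 TEAD elements. The same stretch of SEMA7A, a family gene that rose with shPcyt2-1, lies at chr15:74433959-74434108 on the minus strand and holds 0 E-box cores, 2 GC boxes and 0 TEAD elements. Both are RefSeq sequence of build GRCh38.p14, written 5′ to 3′ along the gene.
SEMA3F: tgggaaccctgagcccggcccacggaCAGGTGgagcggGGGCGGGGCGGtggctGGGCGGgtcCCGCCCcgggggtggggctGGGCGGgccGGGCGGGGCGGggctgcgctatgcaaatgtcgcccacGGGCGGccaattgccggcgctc
SEMA7A: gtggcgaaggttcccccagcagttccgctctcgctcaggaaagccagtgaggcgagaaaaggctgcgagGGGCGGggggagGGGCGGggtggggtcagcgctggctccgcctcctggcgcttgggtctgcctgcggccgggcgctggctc

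The RefSeq table gave 14 windows of 300 bases for 8 of the 9 members, NRP1 being the one not matched. Of these windows 2 held an E-box core, 1 of SEMA3F and 1 of PLXNB1, where 20.6% of the 35116 windows of all genes held one. A GC box stood in 11 of the 14, against 45.0% of all windows. A TEAD element stood in 2, another window of SEMA3F and another of PLXNB1, against 14.0% of all windows. Of the other family genes that fell with shPcyt2-1, PLXND1 and SEMA4G held 0 E-box cores, SEMA3B held 1 and SEMA6B was not matched. SEMA4F, which was not called with either hairpin, held 1. Whether E-box cores go with the direction of change was not tested. A match is a description of letters and says nothing of binding in these cells.

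Levels of the 9 genes spanned 2 orders of magnitude in the control cells. In shNT the order by mean level in FPKM was SEMA3F (75.7 ± 2.8, SD, n = 2), PLXNB2 (45.3 ± 5.5), SEMA4C (29.5 ± 0.98), PLXNA1 (20.6 ± 1.4), SEMA4B (18.2 ± 0.37), PLXNB1 (10.7 ± 1.3), NRP2 (5.06 ± 0.54), NRP1 (2.97 ± 0.41) and SEMA3C (0.605 ± 0.031). No 2 neighbors in this order overlapped in their shNT libraries. SEMA3F stood at percentile 95.7 of all 19655 genes by its mean over the libraries, and SEMA3C at percentile 37.0. All 9 members passed the limit for testing, a mean of 0.5 FPKM over the libraries, with SEMA3C just inside it at 0.640. FPKM is a level per length, which allows this order between genes.

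Of the 8 members other than SEMA3F, 2 changed with shPcyt2-1 and 1 changed with shPcyt2-2 against shNT, and 3 differed between the hairpins. With shPcyt2-1, NRP1 and NRP2 were higher and none was lower by limma (3 had an unadjusted p under 0.05), where 26.7% of the 12756 tested genes were called (16.5% higher and 10.1% lower). With shPcyt2-2, SEMA4C was lower, where 12.4% of tested genes were called (7.69% higher and 4.74% lower). Between shPcyt2-2 and shPcyt2-1, NRP1, NRP2 and SEMA4C were lower with shPcyt2-2, where 27.1% of tested genes were called (12.9% higher and 14.2% lower). The median log2 fold change of the 8 members was 0.09, -0.0033 and -0.18 in these comparisons, against 0.07, 0.04 and -0.02 over all tested genes. The share of members called, 25%, 12.5% and 37.5%, was within 1 gene of the share over all genes.

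The count of calls over all genes was not even between settings. With the libraries scaled by median ratios, 1475 genes were higher and 1714 lower with shPcyt2-1, in place of 2109 and 1291, and 760 were higher and 848 lower with shPcyt2-2, in place of 981 and 604. Between the hairpins the split went from 1648 and 1815 to 1835 and 1705 with this scaling. Once trends on GC content and length were taken out, 1809 were higher and 1689 lower with shPcyt2-1. Without shPcyt2-2 replicate 1, calls with shPcyt2-2 fell to 125 from 1585, and without shNT replicate 2 to 401 and without shPcyt2-2 replicate 2 to 703.

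SEMA3F, a secreted ligand that binds NRP2 best, was the most abundant of the 9 and lay on opposite sides of shNT with the hairpins. It was listed at 73.7 and 77.7 FPKM with shNT, at 56.4 and 63.2 with shPcyt2-1 and at 87.7 and 81.0 with shPcyt2-2. Both shPcyt2-1 libraries lay below both shNT libraries and both shPcyt2-2 libraries above them, without overlap between any groups. SEMA4G, SEMA5A and PLXNC1 stood in this order without overlap too, SEMA5A and PLXNC1 being under the expression limit. Groups of 2 libraries can part like this by chance. The share of all genes that do so was not computed, here or for genes below whose groups did not overlap. The log2 fold change of FPKM + 1 was -0.34 (SE 0.08) with shPcyt2-1 and 0.15 (SE 0.08, 95% interval -0.016 to 0.32) with shPcyt2-2. Between shPcyt2-2 and shPcyt2-1 it was 0.49 (SE 0.08). No test is given, since these values chose the gene. The value with shPcyt2-2 was 0.097 without shPcyt2-2 replicate 1 and lay between that and 0.21 with other single libraries left out. That with shPcyt2-1 was -0.21 after a trend on GC content and length had been removed from each library. SEMA3F lies on chromosome 3 (50155045 to 50189075, plus strand, GRCh38), and SEMA3F-AS1, which overlaps it on the opposite strand, had a mean of 0.104 FPKM.

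SEMA3C, a secreted ligand that binds both neuropilins, was the least abundant of the 9. Its FPKM was 0.627 and 0.583 with shNT, 0.776 and 0.641 with shPcyt2-1 and 0.836 and 0.379 with shPcyt2-2. The highest and the lowest value were the replicates of shPcyt2-2, so that this group spanned all the others. The log2 fold change was 0.09 with shPcyt2-1 (95% interval -0.24 to 0.41) and -0.01 with shPcyt2-2 (95% interval -0.34 to 0.31), and neither passed the test.

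SEMA4B and SEMA4C are transmembrane ligands, and SEMA4C is known as a ligand of PLXNB2. SEMA4B was listed at 18.4 and 17.9 FPKM with shNT, 17.0 and 18.3 with shPcyt2-1 and 18.1 and 18.3 with shPcyt2-2. Its groups overlapped in all 3 comparisons and its log2 fold changes lay between -0.04 and 0.04, with 95% intervals between -0.21 and 0.21.

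SEMA4C parted between the hairpins the other way from SEMA3F. Its FPKM was 28.8 and 30.2 with shNT, 32.7 and 32.9 with shPcyt2-1 and 24.6 and 24.3 with shPcyt2-2. The shPcyt2-1 libraries were highest, the shPcyt2-2 libraries lowest, and no groups overlapped. The log2 fold change was -0.26 with shPcyt2-2 (SE 0.07, limma, adjusted p = 0.0356), 0.15 with shPcyt2-1 (SE 0.07, limma, adjusted p = 0.125) and -0.41 between shPcyt2-2 and shPcyt2-1 (SE 0.07, limma, adjusted p = 0.0027). The change with shPcyt2-2 did not pass when shNT replicate 2 (adjusted p = 0.128), shPcyt2-1 replicate 1 (0.0713), shPcyt2-1 replicate 2 (0.0714), shPcyt2-2 replicate 1 (0.139) or shPcyt2-2 replicate 2 (0.102) was left out. It also did not pass by limma without an expression limit, with only the 2 groups compared or without a variance trend (adjusted p = 0.0680, 0.0734 and 0.0727), while the difference between the hairpins passed in each of these settings. With shPcyt2-1 the value was 0.24 and passed (limma, adjusted p = 0.0109) once trends on GC content and length were taken out, and was 0.077 with median-ratio scaling.

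None of the 3 plexins among the members passed the test in any comparison by limma, where 26.7%, 12.4% and 27.1% of tested genes were called. An unadjusted p under 0.05 was found for 1 (PLXNB2) with shPcyt2-1, 0 with shPcyt2-2 and 2 (PLXNB1 and PLXNB2) between the hairpins. Of the 12756 tested genes, 5211, 3971 and 5132 had such a p in these comparisons. PLXNA1, which pairs with neuropilins to receive secreted semaphorins, was listed at 19.6 and 21.6 FPKM with shNT, 22.1 and 21.7 with shPcyt2-1 and 22.7 and 20.2 with shPcyt2-2. Its shPcyt2-2 libraries were the highest and the second lowest of the 6, and its log2 fold changes were 0.08 (95% interval -0.10 to 0.27) and 0.06 (-0.13 to 0.25) with the hairpins. Once trends on GC content and length were taken out, PLXNA1 passed with shPcyt2-1 (0.21, limma, adjusted p = 0.0291).

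PLXNB1, the receptor of SEMA4D, was listed at 9.73 and 11.6 FPKM with shNT, 11.2 and 10.8 with shPcyt2-1 and 9.31 and 8.85 with shPcyt2-2. The shPcyt2-2 libraries were lower than all the others. Its log2 fold change was -0.21 with shPcyt2-2 (95% interval -0.42 to 0.01) and -0.26 between shPcyt2-2 and shPcyt2-1 (SE 0.10, limma, adjusted p = 0.0778). The first was -0.32 without shNT replicate 1 and -0.090 without shNT replicate 2, and -0.13 once trends on GC content and length were taken out, and passed in none of these. The latter passed with only the 2 groups compared, without shNT replicate 1 or 2, and once trends on GC content and length were taken out (adjusted p = 0.0445, 0.0427, 0.0444 and 0.0074).

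PLXNB2, the receptor of SEMA4C and the most abundant plexin, was listed at 41.4 and 49.2 FPKM with shNT, 39.3 and 38.9 with shPcyt2-1 and 46.6 and 43.5 with shPcyt2-2. The shPcyt2-1 libraries were the lowest, while those of shNT and shPcyt2-2 overlapped, with shNT the most spread. Its log2 fold change was -0.20 with shPcyt2-1 (SE 0.09, limma, adjusted p = 0.110) and 0.20 between shPcyt2-2 and shPcyt2-1 (SE 0.09, limma, adjusted p = 0.116). With shPcyt2-1 it passed without shNT replicate 1 (-0.33, adjusted p = 0.0184) and with median-ratio scaling (-0.27, adjusted p = 0.0481), while without shNT replicate 2 it was -0.080 and, once trends on GC content and length were taken out, -0.061, and did not pass. Between the hairpins it passed with only the 2 groups compared and without shNT replicate 1 or 2 (adjusted p = 0.0377, 0.0367 and 0.0373).

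The neuropilins were the members with the largest change with shPcyt2-1. NRP1, the co-receptor of SEMA3A and of VEGFA, was listed at 3.26 and 2.68 FPKM with shNT, 7.68 and 7.14 with shPcyt2-1 and 2.99 and 2.91 with shPcyt2-2. It was high in both shPcyt2-1 libraries, and the shPcyt2-2 libraries lay between those of shNT. Its log2 fold change of FPKM + 1 was 1.09 with shPcyt2-1 (SE 0.11, limma, adjusted p = 6.2e-04), -0.0036 with shPcyt2-2 (95% interval -0.25 to 0.24) and -1.09 between shPcyt2-2 and shPcyt2-1 (SE 0.11, limma, adjusted p = 2.9e-04). Both calls held under each alternative in which NRP1 was tested. A limit of 5 FPKM leaves NRP1 out, its mean being 4.44.

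NRP2, the co-receptor of SEMA3F and of VEGFC, was listed at 5.44 and 4.68 FPKM with shNT, 8.46 and 8.15 with shPcyt2-1 and 6.26 and 5.98 with shPcyt2-2. All 4 knockdown libraries lay above both shNT libraries, those of shPcyt2-1 highest, with no overlap of groups. Its log2 fold change was 0.62 with shPcyt2-1 (SE 0.10, limma, adjusted p = 0.0035) and 0.24 with shPcyt2-2 (SE 0.10, limma, adjusted p = 0.137), the latter being 0.14 without shNT replicate 2. Between shPcyt2-2 and shPcyt2-1 it was -0.39 (SE 0.10, limma, adjusted p = 0.0183). This last call was lost without an expression limit (adjusted p = 0.0518) and without shPcyt2-1 replicate 1 (0.119), shPcyt2-1 replicate 2 (0.0713), shPcyt2-2 replicate 1 (0.0535) or shPcyt2-2 replicate 2 (0.0819).

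With the 4 knockdown libraries taken as 1 group against shNT, 0 of the 8 members passed by limma and 1 (NRP2, log2 fold change 0.43, adjusted p = 0.236) had an unadjusted p under 0.05. Of all tested genes 0.00784% (1 gene) passed and 2128 had an unadjusted p under 0.05. In this comparison the difference between the hairpins is part of the spread, and NRP1 had a log2 fold change of 0.54 with an SE of 0.36.

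**Figure D1:**
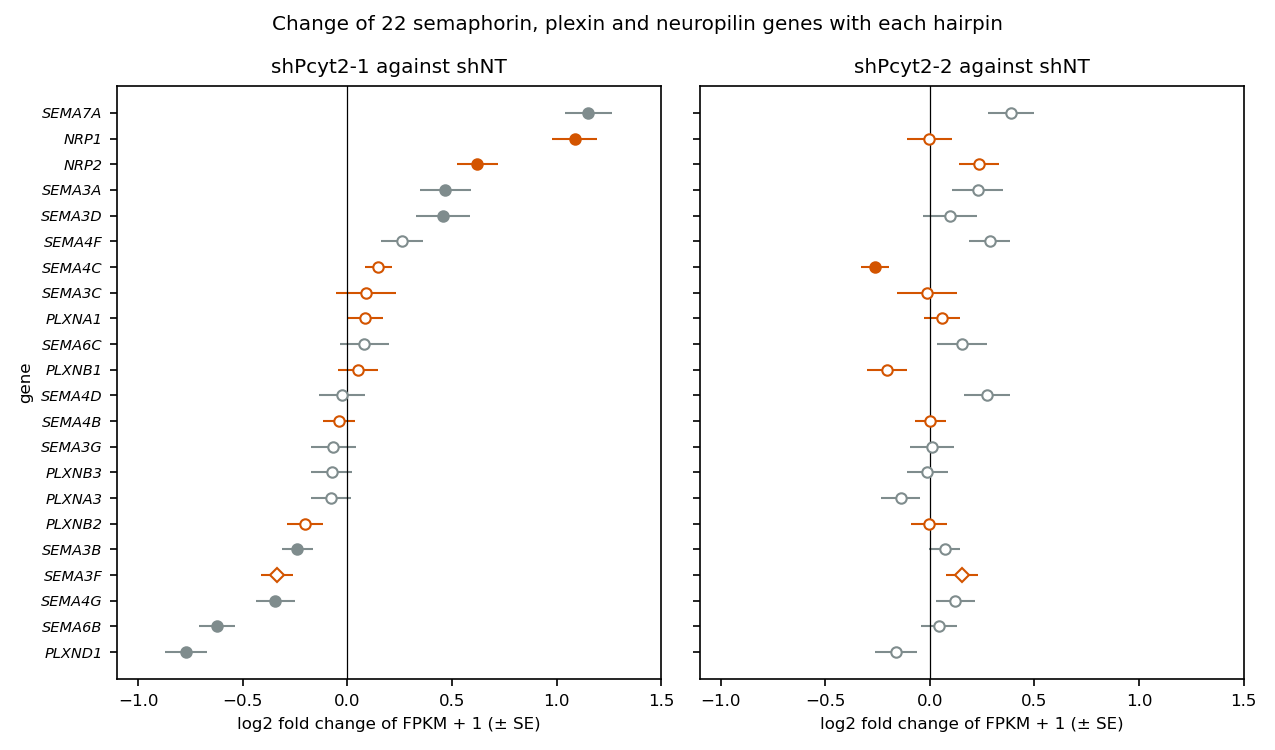
Log2 fold change of FPKM + 1 against shNT (horizontal axis, bars are SE) of the 22 family genes above the expression limit, with the 9 members in orange, the others in grey, filled circles for an adjusted p under 0.05 by limma and a diamond for SEMA3F, which was not tested. SEMA7A, NRP1 and NRP2 lead on the higher side with shPcyt2-1 and PLXND1 and SEMA6B on the lower side, and with shPcyt2-2 the filled circle is SEMA4C alone.

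The family held 22 further semaphorin and plexin genes, of which 13 had a mean of at least 0.5 FPKM. With shPcyt2-1, 3 of the 13 rose (SEMA7A, SEMA3A and SEMA3D) and 4 fell (PLXND1, SEMA6B, SEMA4G and SEMA3B). With shPcyt2-2, 0 passed by limma and 3 had an unadjusted p under 0.05 (SEMA7A, SEMA4F and SEMA4D). Between shPcyt2-2 and shPcyt2-1, 4 were higher (SEMA6B, PLXND1, SEMA4G and SEMA3B) and 1 lower (SEMA7A). The median log2 fold change of the 13 was -0.07, 0.09 and 0.07 in these 3 comparisons, against 0.07, 0.04 and -0.02 over all tested genes. The share of the 13 called was 53.8%, 0% and 38.5%, where 26.7%, 12.4% and 27.1% of tested genes were called.

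SEMA7A, a semaphorin anchored to the membrane by a lipid that binds integrin β1 and PLXNC1, had the largest change with shPcyt2-1 among the tested family genes. It was listed at 2.71 and 3.31 FPKM with shNT, 7.72 and 8.06 with shPcyt2-1 and 3.94 and 4.54 with shPcyt2-2. Its groups did not overlap, and both hairpins lay above shNT. On the log2 scale the fold change was 1.15 with shPcyt2-1 (SE 0.11, limma, adjusted p = 5.8e-04), 0.39 with shPcyt2-2 (limma, adjusted p = 0.0526) and -0.77 between shPcyt2-2 and shPcyt2-1 (limma, adjusted p = 0.0016).

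PLXND1, the receptor of SEMA3E, was listed at 12.9 and 13.0 FPKM with shNT, 6.51 and 7.95 with shPcyt2-1 and 11.2 and 11.8 with shPcyt2-2. Both shPcyt2-1 libraries were lowest by a wide margin, with a log2 fold change of -0.77 (SE 0.10, limma, adjusted p = 0.0016) with shPcyt2-1 and 0.61 between shPcyt2-2 and shPcyt2-1 (limma, adjusted p = 0.0028). SEMA6B, a transmembrane ligand of A-type plexins, was listed at 13.1 and 15.0 FPKM with shNT, 8.70 and 8.77 with shPcyt2-1 and 14.5 and 14.4 with shPcyt2-2. It was low in the shPcyt2-1 libraries alone, and changed by -0.62 with shPcyt2-1 (SE 0.09, limma, adjusted p = 0.0021) and by 0.67 between shPcyt2-2 and shPcyt2-1 (limma, adjusted p = 9.0e-04).

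SEMA3A, the secreted ligand of NRP1, was listed at 13.8 and 13.2 FPKM with shNT, 19.5 and 18.5 with shPcyt2-1 and 18.6 and 13.6 with shPcyt2-2. The replicates of shPcyt2-2 parted, one at the level of shPcyt2-1 and one at the level of shNT. On the log2 scale the fold change with shPcyt2-1 was 0.47 (SE 0.12, limma, adjusted p = 0.0237), and this call was lost without shNT replicate 1 (adjusted p = 0.0509), without shNT replicate 2 (0.0972), without shPcyt2-1 replicate 1 (0.0908), without an expression limit (0.109) and once trends on GC content and length were taken out (0.27, adjusted p = 0.0570).

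SEMA4G, a transmembrane semaphorin, was listed at 7.65 and 6.73 FPKM with shNT, 5.39 and 5.49 with shPcyt2-1 and 8.13 and 7.67 with shPcyt2-2, so that shPcyt2-1 was lowest. It was higher by 0.47 between shPcyt2-2 and shPcyt2-1 (SE 0.09, limma, adjusted p = 0.0074). SEMA4G overlaps MRPL43 on the opposite strand, which had a mean of 45.9 FPKM. Among the 9 genes under the limit were SEMA5B, SEMA6D and PLXNA4, each listed above 0 in 1 library, and PLXNC1, with a mean of 0.125 FPKM.

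Lists of genes that work with semaphorin receptors held 67 genes, of which 57 were tested. Of these 16 (28.1%) changed with shPcyt2-1, 7 (12.3%) with shPcyt2-2 and 16 (28.1%) between the hairpins, shares close to those over all genes (26.7%, 12.4% and 27.1%). Of 9 tested co-receptors, 2 rose (ITGB1 and MET) and 2 fell (EGFR and ERBB2) with shPcyt2-1, and 0 changed with shPcyt2-2 by limma (2 at an unadjusted p under 0.05). Between shPcyt2-2 and shPcyt2-1 the same 4 genes passed, EGFR and ERBB2 higher and ITGB1 and MET lower. The share of the 9 called was 44.4%, 0% and 44.4% in these comparisons, against 26.7%, 12.4% and 27.1% of tested genes.

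ITGB1, the integrin β1 subunit that SEMA7A binds, was listed at 67.4 and 59.8 FPKM with shNT, 114 and 111 with shPcyt2-1 and 77.4 and 68.7 with shPcyt2-2. It was highest with shPcyt2-1, where it changed by 0.82 (SE 0.08, limma, adjusted p = 5.8e-04). MET, the HGF receptor that associates with B-type plexins, changed by 0.43 with shPcyt2-1 (SE 0.09, limma, adjusted p = 0.0127). The receptor tyrosine kinases EGFR and ERBB2 changed by -0.49 (SE 0.10, limma, adjusted p = 0.0088) and -0.47 (SE 0.08, limma, adjusted p = 0.0046) with shPcyt2-1. Without shPcyt2-1 replicate 1 the calls of MET and EGFR were lost (adjusted p = 0.0779 and 0.0587), and that of MET was lost without an expression limit (0.0519) and its value was 0.28 once trends on GC content and length were taken out. Between the hairpins ITGB1 changed by -0.62, MET by -0.44, EGFR by 0.75 and ERBB2 by 0.43, and MET was lost there without shPcyt2-1 replicate 1 (adjusted p = 0.0575) or shPcyt2-2 replicate 2 (0.0589).

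Of 7 other neuropilin ligands 4 were tested, and VEGFC, VEGFD and HGF were not listed in any library. VEGFA, the main angiogenic ligand of NRP1, was listed at 15.2 and 15.6 FPKM with shNT, 12.5 and 11.6 with shPcyt2-1 and 16.6 and 17.8 with shPcyt2-2. It was lowest with shPcyt2-1 and highest with shPcyt2-2, with a log2 fold change of -0.33 with shPcyt2-1 (SE 0.08, limma, adjusted p = 0.0170) and of 0.48 between the hairpins (limma, adjusted p = 0.0030). The first of these was lost without shNT replicate 2 (adjusted p = 0.0658), shPcyt2-1 replicate 1 (0.0612) or shPcyt2-1 replicate 2 (0.121). TGFB1, a growth factor that neuropilins can bind, changed by -0.26 with shPcyt2-1 (SE 0.06, limma, adjusted p = 0.0183) and 0.26 between the hairpins (limma, adjusted p = 0.0173). Once trends on GC content and length were taken out, the first was -0.13 and did not pass (adjusted p = 0.125). Both TGFB1 calls were lost without shPcyt2-1 replicate 1 (adjusted p = 0.182 and 0.177). The first was also lost without shNT replicate 2 (adjusted p = 0.0641), and the other without shPcyt2-2 replicate 1 (0.0574) or replicate 2 (0.0987). With shPcyt2-2, 0 of the 4 passed by limma, where 12.4% of tested genes were called, and 1 had an unadjusted p under 0.05. The calls with shPcyt2-1 and between the hairpins were 2 of 4 each (50%), against 26.7% and 27.1% of tested genes.

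All 7 proteases that process semaphorins or shed their receptors were tested. With shPcyt2-1, 3 rose (ADAM17, MMP14 and ADAM10, membrane proteases that cut surface proteins) and none fell, with shPcyt2-2 MMP14 fell, and between the hairpins ADAM17 and MMP14 were lower with shPcyt2-2. The share of the 7 called was 42.9%, 14.3% and 28.6%, against 26.7%, 12.4% and 27.1% of tested genes. ADAM17 was listed at 11.7 and 11.5 FPKM with shNT, 17.7 and 18.2 with shPcyt2-1 and 10.9 and 11.1 with shPcyt2-2. Its shPcyt2-1 libraries stood above all others, and it changed by 0.58 with shPcyt2-1 (SE 0.07, limma, adjusted p = 0.0016) and -0.66 between the hairpins (limma, adjusted p = 5.3e-04). MMP14 was listed at 8.38 and 9.11 FPKM with shNT, 13.1 and 12.01 with shPcyt2-1 and 6.81 and 6.77 with shPcyt2-2. Its groups did not overlap, and it changed by 0.48 with shPcyt2-1 (limma, adjusted p = 0.0062), -0.32 with shPcyt2-2 (limma, adjusted p = 0.0455) and -0.80 between the hairpins (limma, adjusted p = 4.9e-04). ADAM10 changed by 0.42 with shPcyt2-1 (SE 0.12, limma, adjusted p = 0.0267), and by 0.24 once trends on GC content and length were taken out.

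The call of MMP14 with shPcyt2-2 was lost without shNT replicate 2, shPcyt2-1 replicate 1, shPcyt2-1 replicate 2, shPcyt2-2 replicate 1 or shPcyt2-2 replicate 2 (adjusted p = 0.194, 0.0757, 0.0752, 0.157 and 0.110), and that with shPcyt2-1 was lost without shPcyt2-1 replicate 1 (0.0648). The ADAM10 call was lost without shNT replicate 2 (adjusted p = 0.130), shPcyt2-1 replicate 1 (0.148) or shPcyt2-1 replicate 2 (0.0649).

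Of 37 tested cytoplasmic effectors, 6 rose and 1 fell with shPcyt2-1, 4 rose and 2 fell with shPcyt2-2, and between the hairpins 4 were higher and 4 lower. The share of the 37 called was 18.9%, 16.2% and 21.6%, against 26.7%, 12.4% and 27.1% of tested genes. RRAS, a small GTPase that plexins inactivate, was listed at 43.4 and 42.0 FPKM with shNT, 32.5 and 34.1 with shPcyt2-1 and 54.1 and 62.2 with shPcyt2-2. Its groups stood in the same order as those of SEMA3F and did not overlap, and it passed in each comparison, with log2 fold changes of -0.35 (SE 0.08, limma, adjusted p = 0.0134), 0.44 (SE 0.08, limma, adjusted p = 0.0123) and 0.78 (SE 0.08, limma, adjusted p = 3.2e-04). The first was lost once trends on GC content and length were taken out (-0.20, adjusted p = 0.105) and without shPcyt2-1 replicate 1 (0.0861), and the next without shNT replicate 2 (0.0555) or shPcyt2-2 replicate 2 (0.0570). Without an expression limit both were lost (adjusted p = 0.0549 and 0.0717). GIPC1, an adaptor that binds the tails of NRP1 and PLXND1, was listed at 59.8 and 67.6 FPKM with shNT, 74.6 and 72.3 with shPcyt2-1 and 46.6 and 47.2 with shPcyt2-2. It was lowest with shPcyt2-2, with a change of -0.43 (SE 0.07, limma, adjusted p = 0.0093), which was lost without shPcyt2-2 replicate 1 (0.0874), and of -0.64 between the hairpins (limma, adjusted p = 5.1e-04).

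SH3BP1, a Rac inactivator known to act below PLXND1, changed by -0.67 with shPcyt2-2 (SE 0.10, limma, adjusted p = 0.0060). DPYSL5, a collapsin response mediator, changed by 0.51 with shPcyt2-2 (SE 0.11, limma, adjusted p = 0.0208), and TIAM1, a Rac activator, by 0.65 between shPcyt2-2 and shPcyt2-1 (SE 0.11, limma, adjusted p = 0.0035). With shPcyt2-1, RAP1B, a GTPase on which plexins act, changed by 0.58 (limma, adjusted p = 0.0063, and 0.38 once trends on GC content and length were taken out), DPYSL3, a collapsin response mediator, by 0.48 (limma, adjusted p = 0.0038) and LIMK1, the kinase of cofilin, by 0.33 (limma, adjusted p = 0.0119). The 4 effectors that rose with shPcyt2-2 were RRAS, DPYSL5, DPYSL3 (0.28, limma, adjusted p = 0.0456) and RHOA (0.21, limma, adjusted p = 0.0460). RHOA also rose with shPcyt2-1 (0.20, limma, adjusted p = 0.0320). Without shPcyt2-2 replicate 1 the calls of SH3BP1 and DPYSL5 with shPcyt2-2 were lost (adjusted p = 0.0675 and 0.114), that of DPYSL5 also without shNT replicate 1 or 2 (0.0650 and 0.0620), and that of LIMK1 without shPcyt2-1 replicate 1 or 2 (0.0626 and 0.0683).

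The 6 tested genes whose profile over the 6 libraries was most like that of SEMA3F were MUC3A, LPCAT4, ACBD4, CCR7, GSN and CMTM4. Likeness was measured as the root mean square distance between log2(FPKM + 1) profiles centred on their own means, which ran from 0.0354 (MUC3A) to 0.0432 (CMTM4), with a median of 0.261 over the tested genes. GSN, which encodes the actin-severing protein gelsolin, was listed at 28.0 and 28.7 FPKM with shNT, 21.4 and 23.3 with shPcyt2-1 and 31.9 and 32.4 with shPcyt2-2. LPCAT4, a lysophospholipid acyltransferase, was listed at 24.9 and 25.7, 18.7 and 20.9, and 27.6 and 27.6 FPKM in the same order. In each of the 6 genes the shPcyt2-1 libraries were lowest. MUC3A and CCR7 were at low levels, between 0.300 and 1.66 FPKM. The genes were picked for this likeness, so it is a description.

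**Figure D2:**
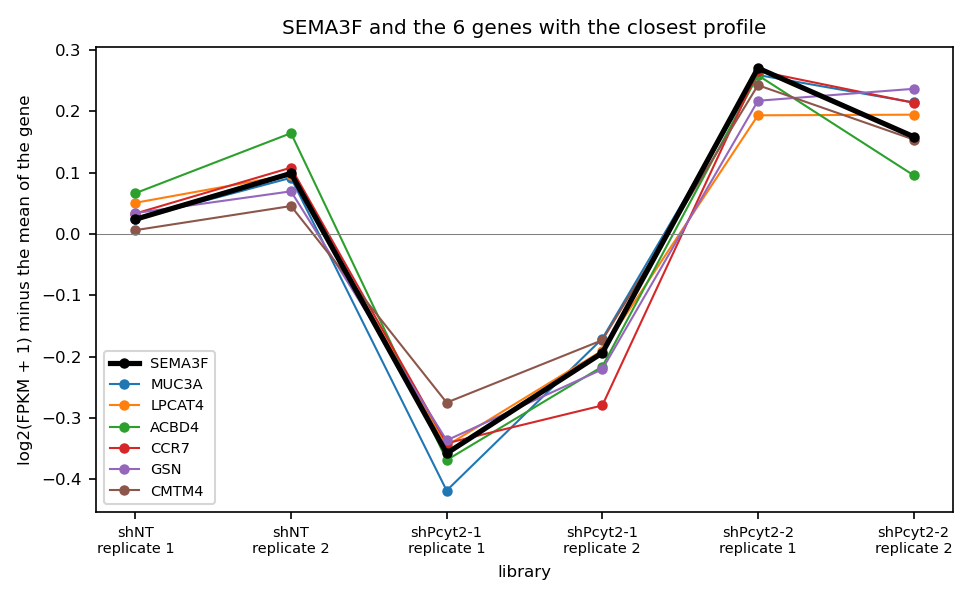
Log2(FPKM + 1) minus the gene's own mean (vertical axis) of SEMA3F (black) and of the 6 genes nearest to it, in each of the 6 libraries (horizontal axis), with lines joining the points of a gene. All dip in the shPcyt2-1 libraries, SEMA3F to -0.36 and -0.19, and stand above 0 in the shPcyt2-2 libraries, SEMA3F at 0.27 and 0.16.

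Markers were read to check the label of the cells. Of 9 colorectal epithelial markers 7 passed the expression limit, led by KRT8, a keratin of simple epithelia, at a mean of 3377 FPKM, while KRT20 and CEACAM5 were under the limit. Of the epithelial markers, KRT8, KRT18 and KRT19 were lower with shPcyt2-2 (log2 fold changes -0.41, -0.45 and -0.44, limma, adjusted p = 0.0048, 0.0032 and 0.0055) and CDX2 was lower with shPcyt2-1 (-0.65, limma, adjusted p = 0.0014). The other tested markers did not pass with shPcyt2-2, with log2 fold changes of 0.19 for CDH1, 0.14 for VIL1, 0.11 for EPCAM and -0.06 for CDX2. The summed level of the 9 was 8211 and 8769 FPKM with shNT, 8432 and 8525 with shPcyt2-1 and 6257 and 6554 with shPcyt2-2, so that the shPcyt2-2 libraries, in which SEMA4C was lower, were also lowest here. This sum is mostly keratin (KRT18 had a mean of 3080 FPKM and KRT19 of 976), while EPCAM, CDH1 and VIL1 had means of 291, 17.1 and 43.0 FPKM with shPcyt2-2 and of 269, 14.9 and 39.0 with shNT. In bulk libraries, fewer cells of a kind and less RNA per cell cannot be told apart, and the part of these keratins in the changes above was not tested.

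Of 5 endothelial markers, a cell type known for neuropilins, 0 passed the limit, and their sum lay between 0.791 and 1.37 FPKM in all libraries, led by CDH5 at a mean of 0.486. Of 5 fibroblast markers 2 passed, led by LUM at a mean of 1.42, with a sum of 1.88 and 1.94 FPKM with shNT, 3.39 and 3.79 with shPcyt2-1 and 2.99 and 2.82 with shPcyt2-2, and COL3A1 was not listed. LUM was higher with shPcyt2-1 (log2 fold change 0.81, limma, adjusted p = 0.0019), as NRP1 and NRP2 were, and its part in their change was not tested. Of 5 leukocyte markers 2 passed, led by CD68 at a mean of 19.5, with a summed level between 17.2 and 24.4, and PTPRC was not listed. Of 5 neuron markers SYT1 alone passed, at a mean of 12.9, with a summed level of 12.3 and 11.8 FPKM with shNT, 15.6 and 15.0 with shPcyt2-1 and 12.9 and 11.5 with shPcyt2-2, and NEFL was not listed. SYT1 was higher with shPcyt2-1 (log2 fold change 0.30, limma, adjusted p = 0.0277) and lower between shPcyt2-2 and shPcyt2-1 (-0.30, limma, adjusted p = 0.0263), as NRP1 and NRP2 were, and its part in their change was not tested.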

How the data were processed

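The authors deposited 1 table per library with values per Ensembl gene that were read as FPKM from the values. TPM over part of the genes cannot be told apart from it. The aligner, the counter and the annotation are not given in the sources used here, and the submitters' processing notes list GRCm38, mm10 and GRCh38 with no role. Per the labels 2 library kits were used, with no record of the libraries each served.

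The tables hold 21539 identifiers. Rows of 115 identifiers that occur more than once were summed, and 1045 groups with identical values became 1 gene each, leaving 19655 genes. An unlisted gene was taken as 0. Gene names and coordinates are those of GENCODE release 29 (GRCh38), and promoters come from RefSeq (GRCh38.p14). Genes with a mean of at least 0.5 FPKM (12756) were tested on log2(FPKM + 1) with limma 3.58.1 in R 4.3.3, with a variance trend on the mean level, and p-values were adjusted by Benjamini-Hochberg over all tested genes (threshold 0.05). This scale understates changes of low genes. Hairpin comparisons came from a fit with 3 groups, and the pooled comparison from a fit with 2. The test for counts that the study used cannot be run on FPKM. The fits were tested on simulated data.

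Members and lists were chosen with earlier results of these data known. Named genes are the members, PCYT2, up to 4 genes per list and comparison with the largest change among those called, the 6 genes nearest to SEMA3F, and the most abundant gene of each marker list. Others are named where a count of 5 or fewer is spelled out or an overlapping or marker gene is described, after their values were seen. Alternatives were a pseudocount of 0.1, other expression limits, median-ratio scaling, other variance models, removal of a trend on GC content and length, only the groups compared, the highest of repeated rows, a replicate block and each library left out. Intervals of counting error were not computed, because the files hold no read numbers. Protein sequences were not used here.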

Additional observations from a re-analysis of the deposited data

Results flagged for a closer look

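The level of SEMA3A in shPcyt2-2 replicate 2, 13.6 FPKM, lay apart from the other 3 knockdown libraries, with a gap of 0.841 of the range of the 4. This was 1 of 32 genes looked at in this way. The 4 values come from both hairpins, and many of the genes were named for their changes, so no chance rate of such flags is given.

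Differences between the hairpins are given as log2 fold changes of shPcyt2-2 against shPcyt2-1, tested by limma except for SEMA3F. SEMA3F differed by 0.49, which was not tested, since the gene was chosen for it. Among the members NRP1 (-1.09), SEMA4C (-0.41) and NRP2 (-0.39) were lower with shPcyt2-2 by limma. Among other family genes SEMA7A differed by -0.77, SEMA6B by 0.67, PLXND1 by 0.61, SEMA4G by 0.47 and SEMA3B by 0.31. Of the co-receptors and ligands, ITGB1 differed by -0.62, MET by -0.44, EGFR by 0.75, ERBB2 by 0.43, VEGFA by 0.48 and TGFB1 by 0.26. Of proteases and effectors, MMP14 differed by -0.80, ADAM17 by -0.66, GIPC1 by -0.64, SH3BP1 by -0.44, RRAS by 0.78, TIAM1 by 0.65 and DPYSL5 by 0.53. Of the cell type markers, KRT8 differed by -0.36, KRT18 by -0.47, KRT19 by -0.50, LUM by -0.53, SYT1 by -0.30 and CDX2 by 0.60.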

How the results depend on the processing

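The calls of NRP1 with shPcyt2-1 and between the hairpins, and those of NRP2 with shPcyt2-1 and of SEMA4C between the hairpins, held in each alternative in which the gene was tested. Of the 8 members tested, 2 were called with shPcyt2-1. PLXNB2 (-0.27) was also called there with median-ratio scaling, where 25.0% of all genes were called. The count was 1 with an expression limit of 5, under which NRP1 is not tested and 34.5% of all genes were called, and 4 once trends on GC content and length were taken out, where PLXNA1 (0.21) and SEMA4C (0.24) were also called, and where 27.5% of all genes were called. It was 2 to 3 with single libraries left out. The 1 member called with shPcyt2-2 (SEMA4C) went to 0 without an expression limit, with only the 2 groups compared and without a variance trend (0.631%, 10.0% and 8.05% of all genes called), and the count was 0 to 1 with single libraries left out. The 3 members that differed between the hairpins became 5 with only the 2 groups compared (29.6% of all genes called), 4 once trends on GC content and length were taken out (37.0% of all genes, 4717 calls), where PLXNB1 was added, and 2 to 5 with single libraries left out. NRP2 was not called between the hairpins without an expression limit, where 12.4% of all genes were called. In the pooled comparison the count was 0 throughout. The causes were not tested. Leaving out 1 library leaves a group with 1 library, assumed to vary like the others.

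Small changes that were not called turned sign. PLXNB1 with shPcyt2-1 was -0.015 and SEMA4B with shPcyt2-2 -0.047 with median-ratio scaling, and once trends on GC content and length were taken out PLXNB2 with shPcyt2-2 was 0.080, SEMA3C with shPcyt2-1 -0.088 and SEMA4B with shPcyt2-1 0.064. With single libraries left out, the log2 fold change was 0.018 to 0.15 for PLXNA1 and 0.032 to 0.15 for SEMA3C with shPcyt2-1, with the sign kept. It was -0.11 to 0.10 for NRP1 with shPcyt2-2, -0.023 to 0.14 for PLXNA1 with shPcyt2-2, -0.11 to 0.054 for PLXNA1 between the hairpins, -0.063 to 0.17 for PLXNB1 with shPcyt2-1 and -0.13 to 0.12 for PLXNB2 with shPcyt2-2. It was -0.22 to 0.19 for SEMA3C with shPcyt2-2, -0.31 to 0.10 for SEMA3C between the hairpins, -0.094 to 0.014 for SEMA4B with shPcyt2-1, -0.017 to 0.022 for SEMA4B with shPcyt2-2 and -0.011 to 0.096 for SEMA4B between the hairpins. The alternatives were not run for the calls of SEMA3B, SEMA3D, RHOA and the cell type markers. Nor were they run for SEMA4G with shPcyt2-1, DPYSL3 with shPcyt2-2 or SH3BP1 between the hairpins. Of the calls of other named genes that were run, some were lost by limma without an expression limit. These were ADAM10, MET, RRAS, SEMA3A and TGFB1 with shPcyt2-1 (adjusted p from 0.0519 to 0.109). The calls of DPYSL5, GIPC1, MMP14, RRAS and SH3BP1 with shPcyt2-2 (0.0652 to 0.0957) were lost there too. Those of RRAS (0.105) and TGFB1 (0.125) with shPcyt2-1 were lost once trends on GC content and length were taken out. Those of TGFB1 with shPcyt2-1 (0.0566) and between the hairpins (0.0577) and of MMP14 with shPcyt2-2 (0.0587) were lost without a variance trend, and the last also with only the 2 groups compared (0.0795).

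Over all genes, the calls were 1844 with shPcyt2-1 and 124 with shPcyt2-2 without an expression limit, in place of 3400 and 1585, and 1027 with shPcyt2-2 without a variance trend. With shPcyt2-1 they were 1735, 1160 and 1848 without shNT replicate 2, shPcyt2-1 replicate 1 and shPcyt2-1 replicate 2. With shPcyt2-2 they were 401, 125 and 703 without shNT replicate 2, shPcyt2-2 replicate 1 and shPcyt2-2 replicate 2. Between the hairpins, in place of 3463, they were 1674, 2080, 2288 and 1989 without shPcyt2-1 replicate 1, shPcyt2-1 replicate 2, shPcyt2-2 replicate 1 and shPcyt2-2 replicate 2. The pooled comparison gave 0 to 7 calls. Deviations of same-numbered libraries correlated at 0.0027 (shNT and shPcyt2-1), 0.062 (shNT and shPcyt2-2) and 0.19 (shPcyt2-1 and shPcyt2-2). The main fits did not read the numbers as pairs, and whether they are pairs is not known. With the replicate block 2, 1, 3 and 0 members were called in the 4 comparisons. In all, 3884, 2029, 3869 and 0 genes were called, in place of 3400, 1585, 3463 and 1.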
